A study of Rattus norvegicus with 6 samples.

Results

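Most of the genes described here encode enzymes that add methyl groups to lysine or arginine residues of histones and other proteins, or that remove them, and a few encode related proteins of the same families. They were chosen by name from the table of gene counts, as the genes whose symbols begin with Kmt, Kdm, Setd or Prmt and a number, together with Ezh1, Ezh2, the Suv39h genes, Ehmt1, Ehmt2, Nsd1, Nsd2, Nsd3 and Dot1l. This gave 52 genes of the 33566 in the table, and 50 of them had at least 1 count. The rule reads gene names and no measured value.

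Histone methylation marks the state of chromatin. H3K4 and H3K36 methylation accompany promoters and bodies of transcribed genes, H3K9 and H3K27 methylation accompany silenced chromatin, and the demethylases take these marks away. The methyltransferases use S-adenosylmethionine (SAM) as the methyl donor and release S-adenosylhomocysteine (SAH), which inhibits many of them. SAH is split reversibly into adenosine and homocysteine (Hcy), so the comparison asks whether cells given Hcy changed the transcript levels of the enzymes that use this cycle. Transcript levels were measured here, and neither methylation marks nor enzyme activity were.

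RNA was sequenced from primary rat brain microvascular endothelial cells (rBMECs), the cells that line brain capillaries, in 3 libraries of the Hcy group and 3 of the vehicle (Veh) group. Both groups came from Sprague-Dawley (SD) rats between 18 and 22 days of age, from the cerebral cortex by the labels and the forebrain by the study's methods, were grown in medium with endothelial growth supplements and were used after a single passage. The labels give a dose of 100 µM Hcy for 24 h, the protocol names an Hcy solution of 50 µM, and vehicle was ddH2O. The labels name no genotype or transgene. The sources do not say how many animals were pooled or whether replicates came from separate isolations, so p-values measure the spread between these libraries, which may be technical.

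Libraries held 14024997 to 16764584 counts, and a level of 3 counts, 0.178 to 0.215 counts scaled to library size (CPM), was taken as the floor of detection, for counting error only. Endothelial markers, among them Vwf, Cdh5, Tie1 and Kdr, summed to 8320 to 8698 CPM in Hcy and 6766 to 8124 CPM in Veh, without overlap. None of the 8 tested passed the adjusted p, and at an unadjusted p of at most 0.05, 3 were higher (Vwf, Flt1, Kdr) and 2 lower (Slc2a1, Tek) in Hcy. Cldn5 had 0 counts in every library and Pecam1 was not matched in the table. Over the 6 libraries, markers of astrocytes summed to 0.237 to 1.11 CPM, of microglia to 0.431 to 0.900 CPM and of oligodendrocytes to 10.6 to 12.2 CPM. Fibroblast markers summed to 35.7 to 57.8 CPM in Hcy and 57.5 to 83.9 CPM in Veh, and Col1a1 was lower without overlap at an unadjusted p of at most 0.05, at a log2 fold change of −0.52 and an adjusted p of 0.264. Of the 3 fibroblast markers tested, the other 2 had positive log2 fold changes, up to 0.53, and none passed the adjusted p. Aqp4, Cx3cr1 and Ptprc had 0 counts throughout. Of the 4 neuron markers Snap25 and Rbfox3 had 0 counts, and the list summed to 6.85 to 9.77 CPM in Hcy and 5.22 to 7.18 CPM in Veh, with Syt1 higher without overlap at an unadjusted p of at most 0.05. Smooth muscle markers differed between the groups, and 3 of 4 (Tagln, Acta2, Cnn1) fell with Hcy, with a summed level of 673 to 702 CPM in Hcy and 1120 to 1348 CPM in Veh. Myh11, the smooth muscle myosin, was near 1 CPM in both groups. Pericyte markers summed to 4.00 to 6.18 CPM in Hcy and 2.85 to 4.01 CPM in Veh. Of the 6 tested, none passed the adjusted p and 1 was higher at an unadjusted p of at most 0.05. Their log2 fold changes ran from −1.09 to 1.66, with 2 higher and 1 lower without overlap. In such bulk samples fewer cells of a type and less RNA per cell cannot be told apart, and the part of these markers in the results was not tested.

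One library stood apart for longer genes, among the members and over all genes tested, before any comparison of the groups. In Veh replicate 3, 36 of the 49 members tested (73.5%) lay below both other Veh libraries, against 38.5% of all 14603 genes tested. By the gene length listed in the table, these were 31 of 32 members of 4000 bases or more and 5 of 17 shorter ones. All 7 members of at least 8000 bases, all 11 of 6000 to 8000 bases and 13 of 14 of 4000 to 6000 bases were lowest in Veh replicate 3, against 2 of 10 between 2000 and 4000 bases and 3 of 7 below 2000 bases. Over all genes tested the same share also rose with length. It was 22.7% below 2000 bases, 41.2% from 2000 to 4000 bases and 65.1% from 4000 to 6000 bases. From 6000 to 8000 bases it was 76.5%, and at 8000 bases or more 79.7%. Across the 49 members, the Spearman correlation of length with the deviation from the mean of the other 2 libraries of its group was −0.59 in Veh replicate 3 and −0.52 in Hcy replicate 1. It was 0.43 in Hcy replicate 2, 0.13 in Hcy replicate 3, 0.48 in Veh replicate 1 and 0.49 in Veh replicate 2. These values describe genes that share a library and carry no test. The labels set a minimum RNA integrity number of 7 and the study's methods a higher one, values per library were not used here, and the part of RNA integrity was not tested. The correlations within a group are tied to each other, since each library is set against the other 2. Results below are given with all 6 libraries, and without Veh replicate 3 where that changed a call or moved a called value.

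**Figure D1:**
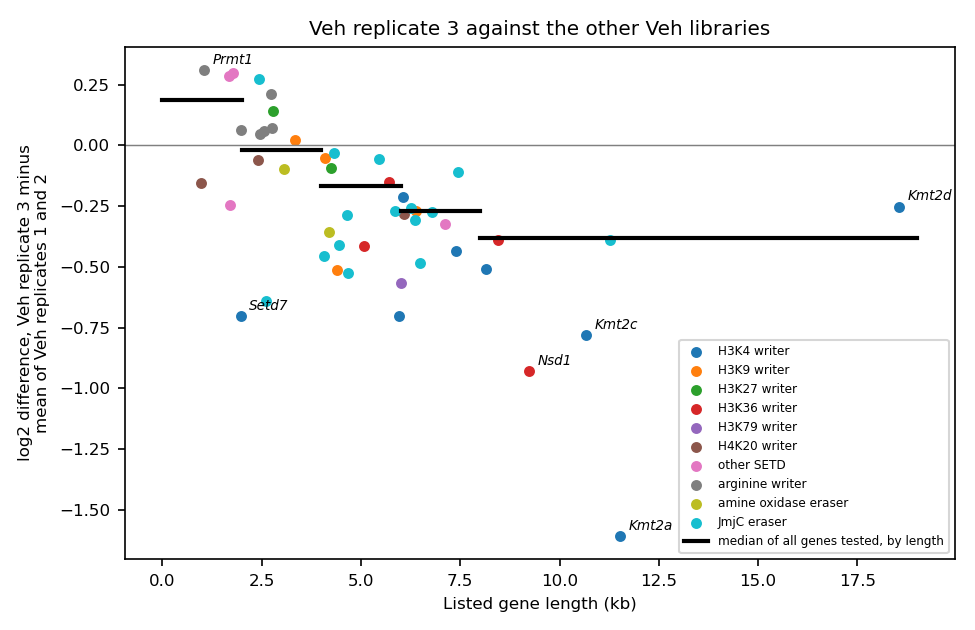
Difference between Veh replicate 3 and the mean of Veh replicates 1 and 2 (log2 of CPM) against the gene length listed in the table (kb). Points are the 49 members, coloured by role, and black lines are medians of all 14603 genes tested in each length range; Kmt2a lies lowest, at −1.61, and the medians fall from 0.19 in the shortest genes to −0.38 in the longest.

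Upstream sequences are shown for the members with an unadjusted p of at most 0.05 that had a matched window, so they were picked by these values. E2F-type words were searched because the promoters of many genes used in dividing cells carry binding sites for E2F factors. A part of E2F factors in the differences was not tested. RefSeq promoter windows of 300 bases on GRCr8 (250 bases before to 50 after the annotated start) were matched by symbol for 42 of the 52 members, and were not matched for Prmt3, Ezh1, Nsd3, Kmt2a, Kmt2d, Kmt2e, Setd7, Suv39h1l1, Kdm6a and Setd5. The windows of Ezh2 (chr4:77687134-77687433, minus strand), Nsd2 (chr14:81135815-81136114, minus strand) and Prmt7 (chr19:51020346-51020645, plus strand) follow, read 5′ to 3′ on the strand of the gene, with E2F-type words and CCAAT boxes in capitals on either strand.
Ezh2: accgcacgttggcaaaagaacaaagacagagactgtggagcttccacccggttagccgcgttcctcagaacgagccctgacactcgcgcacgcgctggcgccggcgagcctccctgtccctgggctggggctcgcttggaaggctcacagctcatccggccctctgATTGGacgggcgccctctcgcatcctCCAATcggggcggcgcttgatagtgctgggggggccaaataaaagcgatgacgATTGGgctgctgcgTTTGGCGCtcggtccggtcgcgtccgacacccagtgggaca
Nsd2: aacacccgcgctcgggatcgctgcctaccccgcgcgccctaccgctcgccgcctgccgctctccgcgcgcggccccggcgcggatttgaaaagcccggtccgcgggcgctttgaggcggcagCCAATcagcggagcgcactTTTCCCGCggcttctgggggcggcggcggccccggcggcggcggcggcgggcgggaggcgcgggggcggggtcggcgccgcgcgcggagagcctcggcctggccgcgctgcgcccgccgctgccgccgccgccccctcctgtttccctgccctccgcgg
Prmt7: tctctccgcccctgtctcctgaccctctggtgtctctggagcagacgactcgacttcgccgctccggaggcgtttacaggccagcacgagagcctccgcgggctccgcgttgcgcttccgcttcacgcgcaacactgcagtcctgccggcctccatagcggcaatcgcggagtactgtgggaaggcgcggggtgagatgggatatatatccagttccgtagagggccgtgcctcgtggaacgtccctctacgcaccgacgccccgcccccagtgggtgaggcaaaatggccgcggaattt

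The E2F-type words searched were TTTCCCGC, TTTGGCGC, TTTGCCGC and TTTCGCGC on both strands, and none of their matches overlapped a CCAAT match in these windows. The Ezh2 window held TTTGGCGC starting 10 bases after the start, with CCAAT words 84, 58 and 5 bases before it. The Nsd2 window held TTTCCCGC 109 bases and CCAAT 128 bases before the start, and the Prmt7 window held neither word. Of the 42 matched members, 4 (9.52%) held an E2F-type word, against 2.14% of all 33469 promoter windows and 2.74% of the 21851 windows of protein-coding genes. The other 2 were Kdm1a and Kmt5c. Each E2F-type word searched holds a CpG dinucleotide, and the members' windows were richer in CpG than others, as given below. The part of base composition in the members' share was not tested. CCAAT was found in 40.5% of the members and 37.5% of all windows.

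The members' promoters were rich in CpG as a group. Their median was 29 CpG dinucleotides per window, against 7 in all windows and 11 in those of protein-coding genes, and their median GC content was 63.7%, against 51.7% and 55.0%. The word GGGCGG, on both strands, was in 30 of 42 windows (71.4%), in 33.1% of all windows and in 41.8% of those of protein-coding genes. The word TATAAA, on both strands, was in 1 of 42 windows (2.38%), that of Kdm7a, and in 14.2% of all windows. Kdm7a also had the fewest CpG dinucleotides, 1, and the lowest GC content, 30.7%, and Nsd2 had the most CpG, 57. Whether the annotated start of Kdm7a is a promoter used in these cells was not tested, and its window may not be one. A word match describes the letters of a window and is neither a binding site nor a cause.

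In the comparison of Hcy with Veh, no member passed the adjusted p. The 14603 genes whose counts over the 6 libraries summed to at least 10 entered edgeR's quasi-likelihood test, and 49 of the 52 members were among them. The p-value was adjusted by the Benjamini-Hochberg method over all genes tested. At an adjusted p of at most 0.05, 0 of 49 members passed in either direction, against 1.32% of all genes tested higher and 1.01% lower in Hcy. With the study's further threshold, a log2 fold change of 1 or more in size, the counts were 0 of 49 members in each direction, against 0.253% of all genes higher and 0.233% lower. At an unadjusted p of at most 0.05, 2 members were higher (Ezh2, Nsd2) and 2 were lower (Kmt2d, Prmt7), or 4.08% in each direction, against 7.44% and 5.95% of all genes. With DESeq2 in place of edgeR, more of all genes passed the adjusted p, and 1 member, Ezh2, was among them. This 1 gene is not read as a result about the members.

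The members' log2 fold changes lay between −0.28 (Kmt2d) and 0.44 (Ezh2), with 20 positive and 29 negative. Their median was −0.02, as was the median of all genes tested. The 95% interval of the log2 fold change lay within 1 of 0 in 48 of 49 members and within 0.5 of 0 in 36. The exception to the wider bound was Kmt2a, whose interval ran from −1.02 to 0.67. A doubling or halving was therefore outside the interval of every member tested except Kmt2a, where a halving was not. In 4 members the 3 Hcy libraries all lay above the 3 Veh libraries (Ezh2, Nsd2, Suv39h1l1, Kdm4a) and in 4 they all lay below (Ezh1, Prmt7, Kmt2d, Kdm4b). This is 8.16% in each direction, against 10.8% and 9.27% of all genes tested.

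**Figure D2:**
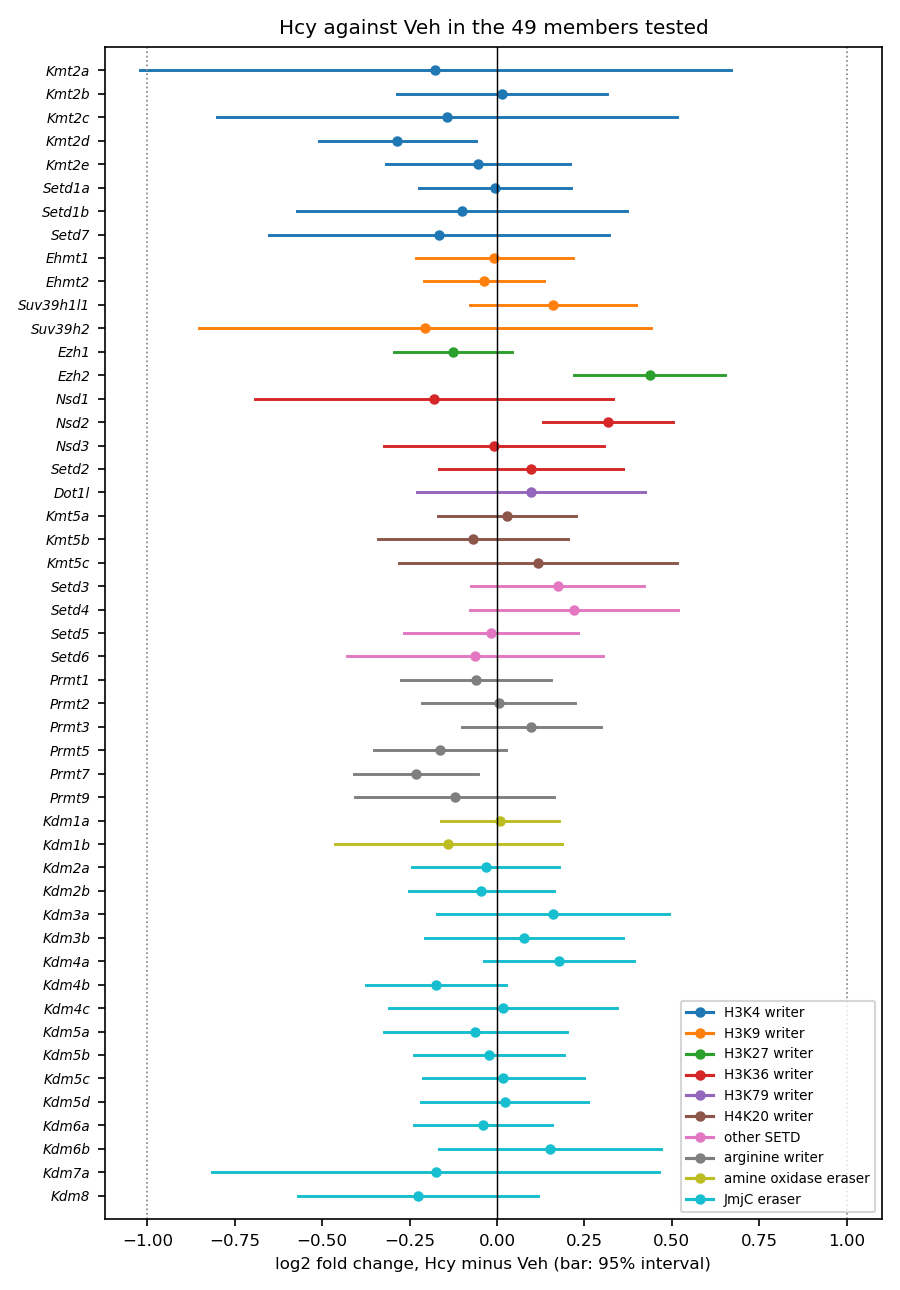
Log2 fold change of each of the 49 members tested (Hcy minus Veh, edgeR), with bars for the 95% interval and colours for role; dotted lines mark the study's threshold of 1 in each direction. Ezh2, at 0.44, and Nsd2, at 0.32, lie farthest to the right, and the widest interval is that of Kmt2a.

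The other 3 members had at most 1 count and were not tested. Prmt8, a membrane-bound arginine methyltransferase known from neurons, and Kdm4d, a demethylase known from the testis, had 0 counts in every library, which allows a level of up to 0.178 to 0.215 CPM. Prmt6, which methylates arginine 2 of histone H3, had 1 count in all, in Veh replicate 3.

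Levels between genes were compared as CPM per kb of the length listed in the table, averaged over the 6 libraries. Prmt1, the main enzyme of asymmetric arginine dimethylation, was highest at 173 CPM per kb, above 96.5% of all genes tested. Setd3, the actin histidine methyltransferase, followed at 44.0 CPM per kb, Kmt5a, which monomethylates H4K20, at 37.5, Prmt5, the main enzyme of symmetric arginine dimethylation, at 30.8, and Ehmt2 at 23.4. The listed lengths of Prmt1 (1062 bases) and Kmt5a (969 bases) are among the shortest of the members, and a value per kb rises as the listed length falls. The lowest were Suv39h2 at 0.587, Kmt2c at 0.727 and Kdm7a at 0.836 CPM per kb. The median member had 7.33 CPM per kb.

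**Figure D3:**
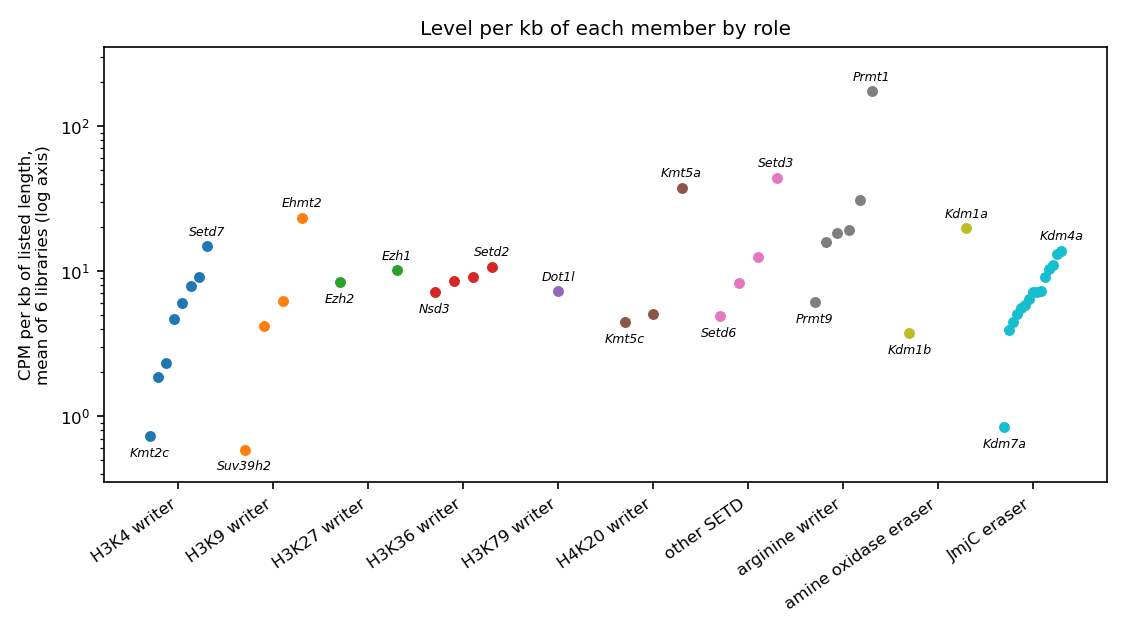
Level of each of the 49 members tested as CPM per kb of listed length, the mean of 6 libraries on a log axis, arranged by role with the highest and lowest member of each role named. Prmt1 stands at 173 and Suv39h2 at 0.587 CPM per kb.

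The H3K27 methyltransferases Ezh2 and Ezh1 are the alternative catalytic subunits of Polycomb repressive complex 2 (PRC2), with Ezh2 known from dividing and Ezh1 from resting cells. Ezh2 (ENSRNOG00000006048, chr4:77284404-77347011, minus strand, as listed in the table) had 27.9, 26.8 and 25.8 CPM in Hcy replicates 1, 2 and 3 and 18.7, 19.6 and 21.1 CPM in Veh replicates 1, 2 and 3. All Hcy libraries lay above all Veh libraries. The log2 fold change was 0.44 (SE 0.095, 95% interval 0.22 to 0.65), with an adjusted p of 0.0525 by edgeR's quasi-likelihood test, just outside the threshold, and an unadjusted p of 0.00133. The adjusted p was 0.0181 with DESeq2, 0.0462 with library totals alone, 0.0469 with edgeR's filterByExpr and 0.0483 over protein-coding genes. It was 0.0510 with DESeq2 size factors in edgeR, 0.0507 with a filter of at least 1 count and 0.0931 with a replicate block. The call therefore depended on these settings. Leaving out 1 library gave log2 fold changes of 0.40 to 0.48, with an adjusted p of 0.0162 without Veh replicate 3 and of up to 0.224 otherwise.

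Ezh1 moved by less and the other way. Its levels were 41.9, 40.5 and 41.4 CPM in Hcy and 47.4, 44.5 and 43.1 CPM in Veh, without overlap. The log2 fold change was −0.13 (SE 0.075, adjusted p = 0.534 by edgeR), which did not pass the test. Per kb, the ratio of Ezh2 to Ezh1 was 1.01, 1.01 and 0.946 in Hcy and 0.599, 0.669 and 0.744 in Veh, or 0.987 ± 0.0362 against 0.671 ± 0.0724 (SD, n = 3). This ratio was chosen after the values were seen and is given without a test.

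Transcripts of markers of dividing cells were higher in the same Hcy libraries. Of 11 tested, 5 rose at the adjusted p (Pcna, Mcm2, Mcm3, Mcm5 and Top2a, with log2 fold changes of 0.52 to 0.80) and 10 were higher without overlap. Pcna, the DNA polymerase clamp, had means of 193 CPM in Hcy and 135 CPM in Veh. The summed level of the list was 517 to 577 CPM in Hcy and 337 to 406 CPM in Veh. The study itself reports that Hcy lowered the proliferation of rBMECs with rising dose, in a cell counting assay at a later time, and raised apoptosis. These transcript levels therefore cannot be read as more cell division, which was not measured here. The part of these markers in the Ezh2 and Nsd2 differences was not tested. Among the promoter windows with an E2F-type word, those of Kmt5c and Kdm1a belonged to genes with log2 fold changes of 0.12 and 0.01.

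The PRC2 partners gave no call. Of 9 tested, none passed the adjusted p, 1 was higher at an unadjusted p of at most 0.05, and their median log2 fold change was 0.01. That gene was Rbbp7, a histone-binding WD40 subunit, at 0.22 (adjusted p = 0.217). Eed, Suz12, Rbbp4, Jarid2, Mtf2, Phf1, Phf19 and Aebp2 had unadjusted p above 0.05.

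The H3K36 methyltransferases divide into the NSD enzymes, which make the dimethyl mark, and Setd2, which makes the trimethyl mark behind RNA polymerase II. Nsd2 (ENSRNOG00000038140, chr14:82119210-82171480, minus strand, as listed) had 58.7, 58.9 and 54.6 CPM in Hcy and 45.3, 50.0 and 42.8 CPM in Veh, with all Hcy libraries above all Veh libraries. Its log2 fold change was 0.32 (SE 0.082, 95% interval 0.13 to 0.50), with an adjusted p of 0.0992 by edgeR and an unadjusted p of 0.00381. No setting brought it past the threshold, and leaving out 1 library gave 0.27 to 0.38 with adjusted p of 0.0577 to 0.312.

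Nsd1 (ENSRNOG00000016680, chr17:9844133-9952898, minus strand, as listed) depended on Veh replicate 3. Its levels were 63.8, 87.2 and 71.6 CPM in Hcy and 100, 99.6 and 52.5 CPM in Veh, so that Veh held both the highest and the lowest values. The log2 fold change was −0.18 (SE 0.226, adjusted p = 0.808 by edgeR) with all libraries and −0.43 (adjusted p = 0.0460) without Veh replicate 3. With any other library left out it lay between −0.31 and −0.034 and was not called. Setd2 and Nsd3 overlapped between the groups. Setd2 had means of 93.4 ± 7.53 CPM in Hcy and 87.3 ± 13.0 CPM in Veh, with a log2 fold change of 0.10. Nsd3 had 36.1 ± 4.19 and 36.3 ± 6.45 CPM (SD, n = 3), with a log2 fold change of −0.01.

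**Figure D4:**
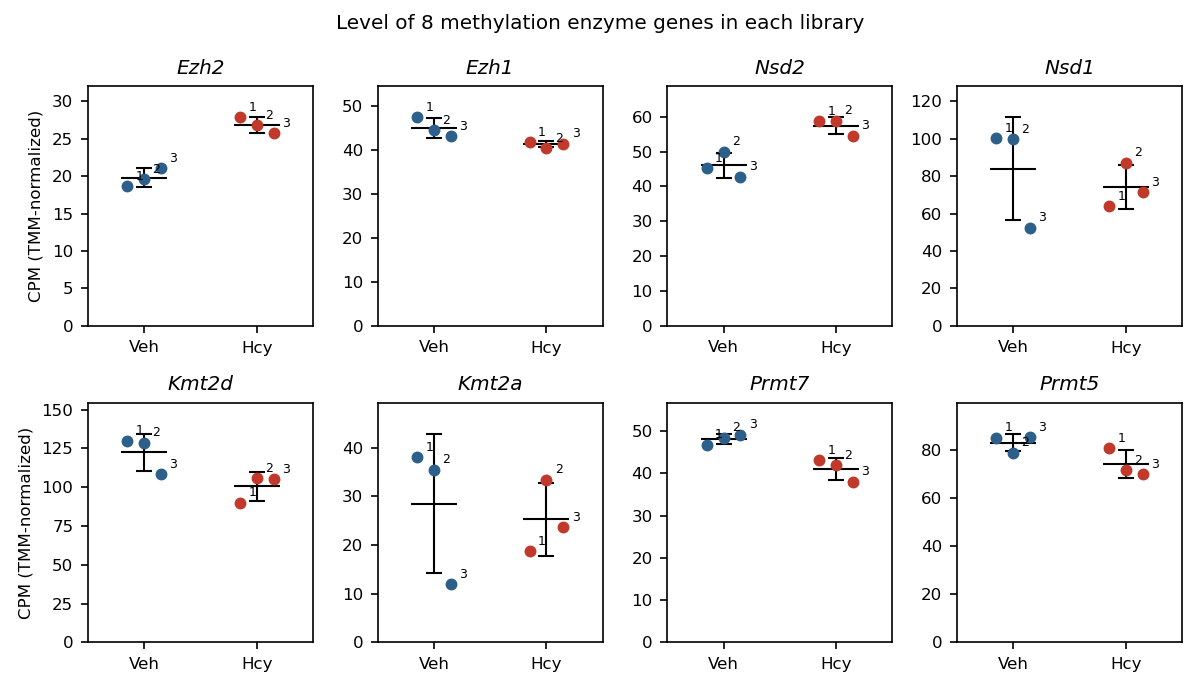
CPM (TMM-normalized) of 8 members in each library, with the replicate number beside each point, the mean as a long dash and the SD as the bar (n = 3). Ezh2 and Nsd2 are higher and Ezh1, Kmt2d and Prmt7 lower in Hcy without overlap, while Nsd1 and Kmt2a are lowest in Veh replicate 3.

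The H3K4 methyltransferases comprise the large KMT2 and SETD1 enzymes of COMPASS-type complexes, Kmt2e, which is known for reading rather than writing H3K4 methylation, and Setd7, a monomethyltransferase with many targets outside chromatin. None of the 8 tested passed the adjusted p. With all libraries 7 had negative log2 fold changes, against 7749 of the 14603 genes tested, and with 1 library left out the number ran from 3 without Veh replicate 2 to 8 without Veh replicate 3. Kmt2d (ENSRNOG00000061499, chr7:140489492-140546908, minus strand, as listed), the main H3K4 monomethyltransferase of enhancers, had 89.98, 106 and 105 CPM in Hcy and 130, 129 and 109 CPM in Veh. The groups did not overlap, although Veh replicate 3 lay close to the Hcy libraries. The log2 fold change was −0.28 (SE 0.099, 95% interval −0.51 to −0.06, adjusted p = 0.230 by edgeR), and −0.36 (adjusted p = 0.0222) without Veh replicate 3. With any other library left out it lay between −0.33 and −0.21 and was not called, with an adjusted p of 0.560 without Hcy replicate 1.

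Kmt2a, the MLL1 enzyme, had the largest SE of the members tested. Its levels were 18.8, 33.5 and 23.6 CPM in Hcy and 38.1, 35.5 and 12.04 CPM in Veh, with coefficients of variation of 29.5% and 50.2%. Its log2 fold change of −0.18 (SE 0.373, adjusted p = 0.901 by edgeR) became −0.54 (adjusted p = 0.127) without Veh replicate 3, and did not pass in either case. Setd7, the highest H3K4 enzyme per kb, had 27.6 ± 6.49 CPM in Hcy and 30.9 ± 7.95 CPM in Veh. Kmt2c, the lowest, had 7.37 ± 2.01 and 8.14 ± 3.08 CPM (SD, n = 3). Their log2 fold changes were −0.17 and −0.14, with overlapping groups. That of Setd7 ran from −0.36 without Veh replicate 3 to −0.023 without Hcy replicate 1.

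Of the 13 COMPASS partners tested, none passed the adjusted p, and the median log2 fold change was −0.03. Wdr5, the WD40 core subunit, and Psip1, a chromatin reader that binds the Kmt2a complex, were higher at an unadjusted p of at most 0.05, with log2 fold changes of 0.23 (adjusted p = 0.194) and 0.38 (adjusted p = 0.179).

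The H3K9 methyltransferases are the Suv39h enzymes, which make the trimethyl mark of constitutive heterochromatin, and the paired enzymes Ehmt1 (GLP) and Ehmt2 (G9a), which make the dimethyl mark. None of the 4 passed the adjusted p. Of the Suv39h1 symbols the table matched only Suv39h1l1, on chromosome X, with 14.4, 14.1 and 15.3 CPM in Hcy and 13.1, 13.0 and 13.2 CPM in Veh. The groups did not overlap, but the log2 fold change was 0.16 (SE 0.105, adjusted p = 0.585 by edgeR). Suv39h2 was near the lower end of the members, at 2.39 ± 0.743 CPM in Hcy and 2.76 ± 0.535 CPM in Veh. Ehmt2 had 94.4 ± 2.96 and 96.8 ± 6.12 CPM, and Ehmt1 39.4 ± 2.31 and 39.6 ± 4.29 CPM (SD, n = 3), with log2 fold changes of −0.04 and −0.01. Per kb, Ehmt2 exceeded Ehmt1 by a ratio of 3.75 ± 0.141 in Hcy and 3.84 ± 0.368 in Veh.

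Dot1l, the H3K79 methyltransferase, had 42.5, 47.0 and 46.6 CPM in Hcy and 48.1, 46.8 and 32.0 CPM in Veh. Its log2 fold change was 0.10 (SE 0.144, adjusted p = 0.846 by edgeR) with all libraries and −0.07 without Veh replicate 3. Dot1l overlaps Plekhj1 on the other strand, which had 801 counts over the 6 libraries, and the sources used here do not say whether counting used the strand. Among the H4K20 enzymes, Kmt5a had 36.7 ± 2.08 CPM in Hcy and 35.98 ± 2.28 CPM in Veh, and Kmt5c, which makes the trimethyl mark, 11.2 ± 1.44 and 10.3 ± 2.12 CPM (SD, n = 3). Kmt5b, which makes the dimethyl mark, ranged from 26.2 to 34.4 CPM over the 6 libraries. None of the 3 passed the adjusted p.

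Of the other SETD genes, none of the 4 tested passed. Setd3 had 87.1, 88.9 and 74.7 CPM in Hcy and 66.6, 71.2 and 84.6 CPM in Veh. It was highest among the Veh libraries in replicate 3, and its log2 fold change was 0.17 (adjusted p = 0.564 by edgeR), or 0.28 (adjusted p = 0.0917) without that library and 0.10 without Veh replicate 1. Setd6, a methyltransferase of the RELA subunit of NF-κB, was the lowest of them per kb, at 8.08 ± 0.907 and 8.43 ± 1.22 CPM (SD, n = 3).

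The arginine methyltransferases tested were short, with listed lengths of 1062 to 2762 bases. Of the 6 tested, 4 had negative log2 fold changes and none passed the adjusted p. Prmt7 (ENSRNOG00000000258, chr19:38189605-38237308, plus strand, as listed), the family's monomethylating enzyme, had 43.2, 41.9 and 38.1 CPM in Hcy and 46.8, 48.5 and 49.2 CPM in Veh. All Hcy libraries lay below all Veh libraries. The log2 fold change was −0.23 (SE 0.079, 95% interval −0.41 to −0.05), with an adjusted p of 0.217 by edgeR, and it stayed between −0.27 and −0.18 when each library was left out.

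Prmt5 had 80.9, 71.7 and 70.0 CPM in Hcy and 85.1, 78.9 and 85.3 CPM in Veh, with 1 Hcy library inside the Veh range. Its log2 fold change was −0.16 (SE 0.083, adjusted p = 0.462 by edgeR). Prmt1 had 187, 178 and 176 CPM in Hcy and 171, 177 and 216 CPM in Veh, so that the spread of Veh covered that of Hcy. Its log2 fold change was −0.06 with all libraries and 0.05 without Veh replicate 3, and neither passed. Prmt9, the lowest tested arginine enzyme per kb, had 16.1 ± 2.28 and 17.5 ± 0.513 CPM (SD, n = 3).

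Of the 4 tested genes whose products bind Prmt5 or Prmt1, none passed the adjusted p. Btg1, a growth inhibitor that binds Prmt1, was higher at an unadjusted p of at most 0.05, with a log2 fold change of 0.27 and an adjusted p of 0.136. Wdr77, the obligate partner of Prmt5, had 5 counts, all in Hcy replicate 2, and was not tested.

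The amine oxidase demethylases Kdm1a (LSD1) and Kdm1b remove methyl groups from H3K4 by oxidation with FAD. Kdm1a had 60.9, 60.3 and 59.9 CPM in Hcy and 58.6, 64.2 and 57.2 CPM in Veh. Its SE, 0.074, was the smallest of the members tested, with a log2 fold change of 0.01 and a 95% interval of −0.16 to 0.18. Kdm1b had 14.9 ± 1.70 and 16.4 ± 2.39 CPM (SD, n = 3), with a log2 fold change of −0.14 that ran from −0.25 without Veh replicate 3 to −0.046 without Veh replicate 2. Of the 7 rows of the LSD1 complex partners, among which Rcor1 is listed under 2 identifiers, none passed the adjusted p, and their median log2 fold change was 0.03.

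The JmjC demethylases use iron and 2-oxoglutarate. None of the 15 tested passed the adjusted p, and their median log2 fold change was −0.02, with 7 positive and 8 negative. With 1 library left out, the number negative ran from 5 without Veh replicate 1 to 12 without Veh replicate 3. Within the Kdm4 family, which acts on H3K9 and H3K36, 2 members stood apart between the groups in opposite directions. Kdm4a had 65.6, 67.7 and 71.6 CPM in Hcy and 63.6, 65.1 and 52.7 CPM in Veh, with a log2 fold change of 0.18 and an adjusted p of 0.490 by edgeR, or 0.087 without Veh replicate 3. Kdm4b had 29.3, 27.3 and 26.3 CPM in Hcy and 32.0, 31.8 and 29.6 CPM in Veh, with a log2 fold change of −0.17 and an adjusted p of 0.464. Neither group overlapped the other in these genes, and neither gene passed.

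The H3K27 demethylases Kdm6a (UTX) and Kdm6b (JMJD3), which oppose the PRC2 enzymes, overlapped between the groups. Kdm6a had 35.1, 39.4 and 41.5 CPM in Hcy and 39.8, 40.8 and 38.8 CPM in Veh, with a log2 fold change of −0.04 (95% interval −0.24 to 0.16). Kdm6b had 23.1, 24.5 and 27.5 CPM in Hcy and 24.2, 25.4 and 18.1 CPM in Veh, with a log2 fold change of 0.15 (95% interval −0.17 to 0.47), or 0.017 without Veh replicate 3 and 0.24 without Veh replicate 2.

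The H3K4 demethylases of the Kdm5 family had log2 fold changes between −0.06 and 0.02. Kdm5b had 63.7 ± 3.07 CPM in Hcy and 64.7 ± 7.14 CPM in Veh (SD, n = 3). The X-linked Kdm5c and its Y-linked copy Kdm5d both had counts in every library. The ratio of Kdm5c to Kdm5d per kb was 1.53 ± 0.0456 in Hcy and 1.53 ± 0.0229 in Veh, and reads may be shared between such similar genes. Kdm7a, the lowest JmjC enzyme per kb, had 2.05 ± 0.302 and 2.31 ± 0.654 CPM, and Kdm4a was the highest per kb.

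Without Veh replicate 3 more members were lower in Hcy. Of the 49, 36 had negative and 13 positive log2 fold changes, 11 had changed sign, and the median was −0.09, against −0.0031 for all genes tested. In that fit Ezh2 was higher at the adjusted p (1 of 49, 2.04%, against 3.48% of all 14352 genes tested), and Kmt2d and Nsd1 were lower (2 of 49, 4.08%, against 3.18%). No member reached the fold threshold. The listed lengths of Kmt2d and Nsd1 were 18552 and 9233 bases. Of the 49 members, 32 were of 4000 bases or more, and the comparison with all genes was not matched for length. The part of gene length in the larger number of negative values was not tested.

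**Figure D5:**
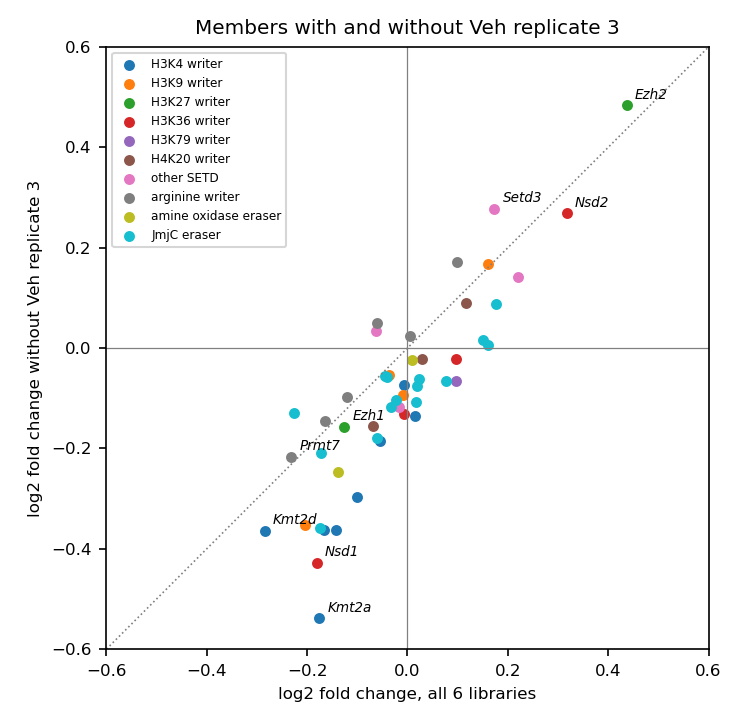
Log2 fold change (Hcy minus Veh) of the 49 members with all 6 libraries and without Veh replicate 3, coloured by role; the dotted line marks equal values. Most points lie below the line, Kmt2a farthest at −0.18 and −0.54, while Ezh2 moves from 0.44 to 0.48.

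The genes that make SAM and clear SAH, where Hcy enters the cycle, gave no call. Of the 12 tested, none passed the adjusted p, and their median log2 fold change was −0.04. Ahcy, which splits SAH into adenosine and Hcy, had means of 117 ± 8.88 CPM in Hcy and 106 ± 10.3 CPM in Veh (SD, n = 3), with a log2 fold change of 0.15 and an adjusted p of 0.572 by edgeR. Mat2a, which makes SAM, had 180 ± 3.05 and 182 ± 6.79 CPM, with a log2 fold change of −0.01. Nnmt, a nicotinamide methyltransferase that consumes SAM, was higher at an unadjusted p of at most 0.05, at 0.41 (adjusted p = 0.120). Of the 19 rows of further lysine and arginine methylation enzymes outside the naming rule, such as Setdb1, Ash1l and Carm1, none passed the adjusted p, 5 had positive and 14 negative log2 fold changes, and Phf2, an H3K9 demethylase, was higher at an unadjusted p of at most 0.05 with 0.30 (adjusted p = 0.259).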

How the data were processed

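The deposited values are read counts per gene as the authors made them, without normalization, in 3 libraries of Hcy and 3 of Veh. The submitters' processing notes name fastp, HISAT2 2.2.1, StringTie 2.2.3, Cufflinks, featureCounts 2.0.6 and DESeq2 1.42.0, and the build mRatBN7.2. Listed positions reach 282724300 on chromosome 1 and cannot be read as that build, so they are given as listed. A table of the authors' own comparison was not used.

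R 4.3.3 and edgeR 4.0.16 were used. Genes with at least 10 counts over the 6 libraries were kept, TMM factors lay between 0.977 and 1.02, and condition was the only term of the quasi-likelihood test. Log2 fold changes used a prior count of 0.125. Errors are SD over 3 libraries or the SE of the fit. Thresholds follow the study's methods. The procedure was checked on simulated counts, with a criterion only for changes larger than those of any member. The check therefore does not bear on changes of the members' size. Alternatives were DESeq2, other scalings and filters, a replicate block, and leaving out each library.

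Members, roles and lists were chosen with earlier results of these data known. Named were members with an unadjusted p of at most 0.05, the highest and lowest per kb of each role, and 15 chosen enzymes, and Kdm4b, Nsd1 and Suv39h1l1 after their values were seen. Promoters came from RefSeq on GRCr8.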

Additional observations from a re-analysis of the deposited data

How the results depend on the processing

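No member passed both thresholds in any fit. The number of members past the adjusted p was 0 with all libraries in edgeR, against 1.32% of all genes tested higher and 1.01% lower in Hcy. It was 1, Ezh2, with DESeq2, with library totals alone, with filterByExpr and over protein-coding genes. Shares of all genes are not given for these fits, and the call is not read as a result about the members. At the unadjusted p 4 members passed, 4.08% in each direction, against 7.44% and 5.95% of all genes tested. Leaving out each library in turn gave 0 to 3, with 3 only without Veh replicate 3 (Ezh2, Kmt2d and Nsd1). Over all genes tested, 341 passed the adjusted p, 612 with DESeq2 and 80 (without Hcy replicate 1) to 957 (without Veh replicate 3) with 1 library left out, a move of over 1.5 times for each of the 6 libraries. The genes past both thresholds numbered 71, 109 with a filter of at least 1 count and 39 (without Hcy replicate 1 or 2) to 112 (without Veh replicate 3) with 1 library left out. The members' median log2 fold change moved between −0.09 and 0.02 with 1 library left out. In a fit that blocked on the replicate number, 82 genes passed both thresholds and 298 the adjusted p, with 0 members in each and a median of −0.02. Same-numbered libraries deviated together with correlations of 0.0237, 0.166 and 0.0581, and Hcy replicate 1 correlated best with Veh replicate 3 (0.129), so the numbers were not taken as pairs.

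With 1 library left out, 28 of the 49 members changed sign, none of them called in any fit, and the cause was not tested. For 13, whose fold changes are not given singly, values lay between −0.30 and 0.16. The ranges of the others were −0.066 to 0.20 for Dot1l, −0.093 to 0.056 for Ehmt1, −0.072 to 0.017 for Ehmt2, −0.024 to 0.057 for Kdm1a, −0.10 to 0.055 for Kdm5b, −0.096 to 0.024 for Kdm6a, −0.36 to 0.051 for Kdm7a, −0.54 to 0.088 for Kmt2a, −0.36 to 0.18 for Kmt2c, −0.021 to 0.067 for Kmt5a, −0.010 to 0.29 for Kmt5c, −0.13 to 0.12 for Nsd3, −0.12 to 0.050 for Prmt1, −0.021 to 0.16 for Setd2 and −0.17 to 0.035 for Setd6. Nsd3 also changed sign with the replicate block, to 0.0013. Kmt2a, Kmt2c, Suv39h2 and Kdm7a had the widest intervals.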
